A study of Mus musculus with 16 samples.

Results

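Whole mouse liver was compared 4 weeks after the end of an 8-week course of thioacetamide with the liver of control mice, across every gene that carried enough reads. The comparison rests on 4 of the series' 16 RNA libraries, chosen by their labels, and on 17292 of the 55401 genes in the table, those that passed a filter on low counts. The mice 4 weeks into recovery (2 libraries) had taken thioacetamide (TAA) by mouth at 300 mg/L for 8 weeks and then recovered for 4 weeks without choline. The TAA mice (2 libraries) had the same 8 weeks and no recovery, and they are read beside the comparison to tell an incomplete return from a new change. The control mice (2 libraries) are labelled control with no agent. Every group is labelled genotype WT. The labels state no age, sex, diet or hour of sampling. Recovery for 1 and 2 weeks without choline and the recovery groups with choline (2 libraries each) entered the fit for its estimate of spread. Nothing in the labels ties the 2 libraries of a group to separate animals, so p-values measure only how these libraries differ, and that may be technical variation.

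Thioacetamide is turned by hepatocytes of the central zone of the lobule into a reactive form that kills them. With repeated doses, stellate cells become collagen-making myofibroblasts, bile duct-like cells multiply and macrophages enter from the blood. When the agent is withdrawn, scar is partly removed and hepatocytes take up their zonal and metabolic programmes again. The liver is also the main site where sterols and fatty acids are made, under transcription factors of the SREBP family, and where glucose is released in fasting.

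At 4 weeks of recovery many genes were called against control, and the number called depended strongly on which libraries were fitted. At an adjusted p under 0.05 (edgeR quasi-likelihood test over all 17292 genes), 3368 genes differed from control, 19.5% of those tested. Of these, 1267 were higher (7.33%) and 2101 were lower (12.2%). Against control, TAA itself had 3636 called genes (21%), 1735 higher (10%) and 1901 lower (11%). Between 4 weeks of recovery and TAA 2569 genes were called (14.9%), 1118 higher (6.47%) and 1451 lower (8.39%) at 4 weeks. The ranges of the 4-week and control libraries did not overlap for 10063 genes, 58.2% of those tested. Without any difference, 2 libraries against 2 separate with a probability of 0.333.

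Each of the 3368 genes was set beside TAA, which shares the control libraries with it. An incomplete return is a gene called on the same side of control at TAA and at 4 weeks, and 1246 genes (7.21% of those tested) had one. Among them 743 lay closer to control than at TAA (136 of these called against TAA) and 503 lay as far or farther (18 called against TAA). The rule reads only TAA and 4 weeks. It cannot tell a gene that stayed away from control from a gene that returned and then left again. How many of the 1246 genes returned in between was not tested. A new change is a gene not called on that side at TAA and called against TAA in the same direction as against control, and 635 genes (3.67%) had one. A further 62 genes (0.359%) overshot, being called on the opposite side of control at TAA. The other 1425 called genes met neither rule and are left unresolved. Looked at from TAA, 464 of its 1735 higher genes (26.74%) and 782 of its 1901 lower genes (41.14%) were still called on the same side at 4 weeks.

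**Figure D1:**
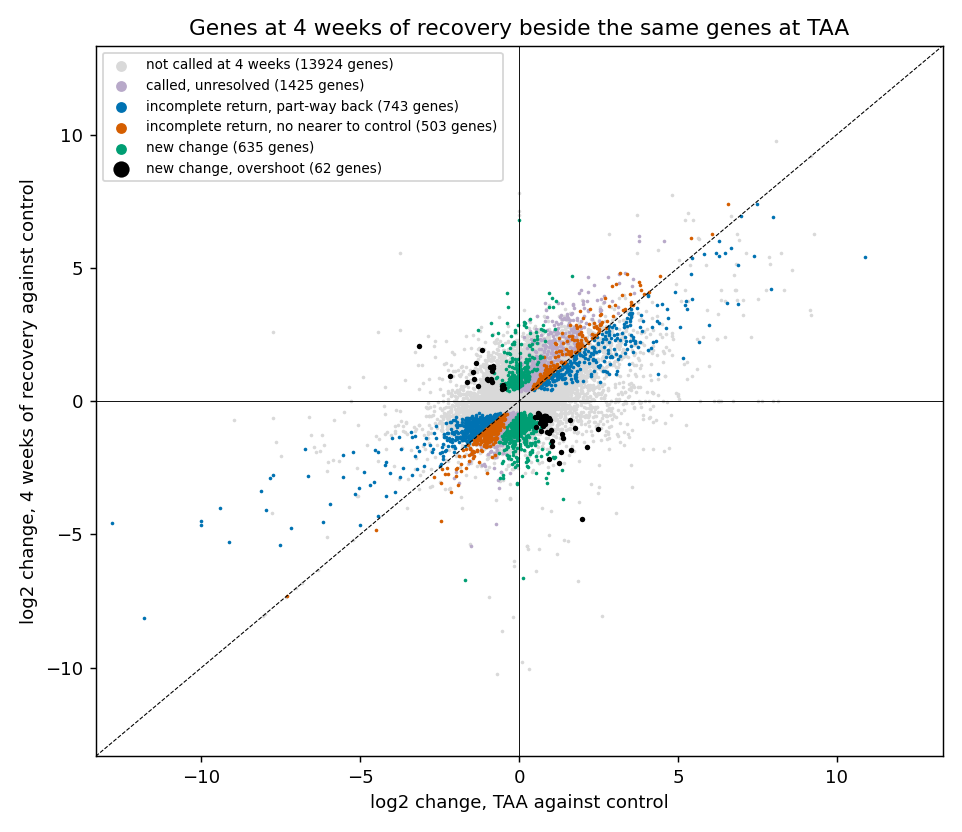
Each point is 1 of 17292 genes, with the log2 change of TAA against control on the x axis and that of 4 weeks of recovery against control on the y axis, coloured by class. The dashed line marks equal changes: the 743 part-way genes lie between it and the x axis, the 503 genes no nearer to control lie beyond it, and the 635 new changes have a median of 0.02 on the x axis.

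The calls rest on 2 libraries a group that were not equally close. Library totals ran from 23.1 to 33.6 Mcounts (25 and 25.3 at 4 weeks, 33.6 and 26.3 at TAA, 32.5 and 32.1 in control). Levels are given in CPM, counts per 1000000 of the TMM-scaled library size. Control replicate 1 and, less so, TAA replicate 1 stood apart: Malat1, a nuclear non-coding RNA, was at 5230 and 5831 CPM at 4 weeks, 1019 and 5989 CPM at TAA, and 146.0 and 5233 CPM in control. Neat1, another nuclear RNA, was at 15220 and 13770 CPM at 4 weeks, 106.7 and 1962 CPM at TAA, and 36.9 and 3207 CPM in control (edgeR adjusted p = 0.142, not called). Unannotated and intronic transcripts took 0.259% and 0.295% of counts at 4 weeks, 0.0526% and 0.202% at TAA, and 0.016% and 0.183% in control. Ribosomal protein pseudogenes took 0.0407% and 0.0396% at 4 weeks, 0.0755% and 0.0552% at TAA, and 0.0801% and 0.0395% in control. The share of counts from 7SL RNA was 8.62% and 10.2% at 4 weeks, 5.82% and 11.96% at TAA, and 15.9% and 13.8% in control. Mitochondrial mRNA took 5.97% and 5.72% at 4 weeks, 4.71% and 3.90% at TAA, and 3.57% and 5.59% in control. Control replicate 1 had the fewest genes with a count (18900, against 21400 in control replicate 2) and a TMM factor of 0.674. Between the 2 libraries of a group, chi-square divided by its degrees of freedom was 22.3 at 4 weeks, 106.7 at TAA and 221.6 in control. Neat1 and the shares of unannotated transcripts and mitochondrial mRNA were higher in both 4-week libraries than in both control libraries, the 7SL share was lower in both, and the pseudogene shares ran from 0.0396% to 0.0407% at 4 weeks and from 0.0395% to 0.0801% in control. The part of these signs in the results was not tested. In control replicate 2 the immediate early gene Fos was at 64.8 CPM, against 0.366 CPM in control replicate 1. Without control replicate 1 the comparison had 940 called genes and without control replicate 2 it had 9044. Without 4-week replicate 1 it had 123 and without 4-week replicate 2 it had 94. Fitted on the 4-week and control libraries alone, edgeR called 0 genes (2033 at an unadjusted p under 0.05), while DESeq2 on all 16 libraries called 4596. All 3368 genes kept their direction in each of 5 fits that left libraries out. These left out each of the 4 compared libraries in turn, and both libraries low in Malat1 (control and TAA replicate 1) together. The genes had been selected as called on the same libraries, so their direction was largely fixed beforehand. Counting calls over these 5 fits, and the list counts with libraries left out, were chosen after seeing the data. Their calls were kept in all 5 fits for 61 genes, 21 higher and 40 lower. These 61 held 38 genes with an incomplete return and 23 with a new change or overshoot. A gene below is said to have kept its call where it is one of the 61. These fits reuse most of the libraries on which the genes were selected, so a kept call is no independent support. Of 92 named genes, 75 were called, and all 75 lost the call in the fit of the 4-week and control libraries alone. In the fit of the 10 libraries without choline, 29 lost it. Every other called gene named below lost its call without at least 1 of the 4 compared libraries, and its log2 range over the 4 fits that left out a single library is given for the main ones. Hmgcs1, Mvd, Cyp51, Fdft1, Lss, Mylip, Acacb, Fasn, Acly, Ccnb1, Mcm2, Mcm3, Foxo1, Ppargc1a, Eln, Alb, Cyp2a5, Bhmt, Dbp, Fkbp5 and Neat1 belong to the lists or serve as reference points and were picked after their values were seen. Summed hepatocyte markers were at 89580 and 83010 CPM at 4 weeks, 92360 and 77230 CPM at TAA, and 121800 and 98490 CPM in control, and 15 of 21 markers of T, NK and B cells were under 1 CPM in all 6 libraries.

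Over all genes tested, 7.33% were called higher and 12.2% lower at 4 weeks, and the counts of each list are read beside these shares. In fits that left out a library, calls over all genes moved widely too. A list's count in such a fit shows its dependence on single libraries and is no evidence for the list. Among the 37 gene lists examined, cholesterol synthesis held the most new changes. Of 20 enzymes tested, 17 fell against control at 4 weeks and 0 rose, with a median log2 change of -1.53 against 0.04 over all genes. At TAA, 8 of the 20 had been higher and 2 lower than control, with a median of 0.63. Of the 17 that fell, 10 were new changes, 5 overshot and 2 were incomplete returns. Of the 20, 18 were lower at 4 weeks than at TAA. With control replicate 1 left out, 12 were called lower, without control replicate 2, 17, and without each 4-week library in turn, 6, with medians from -1.85 to -1.44 over these fits.

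Promoters of 4 enzymes of this list are shown because they carry the letters CCAAT, the box bound by the factor NF-Y that works beside SREBP at sterol genes. The windows are from RefSeq (GRCm38.p6), 250 bases before to 50 after the start, and 15 of the 20 genes matched by symbol, with 18 windows. The RefSeq start lies 0 bases from the deposited gene start in Pmvk, 25 in Mvk, 214 in Msmo1 and 113 in Hmgcs1. Capitals mark CCAAT on either strand and, in Hmgcs1, the classic sterol element TCACNCCAC, and the marked matches do not overlap. Pmvk lies at chr3:89454291-89454590 (+), Mvk at chr5:114444019-114444318 (+), Msmo1 at chr8:64733529-64733828 (-) and Hmgcs1 at chr13:119690101-119690400 (+).
Pmvk: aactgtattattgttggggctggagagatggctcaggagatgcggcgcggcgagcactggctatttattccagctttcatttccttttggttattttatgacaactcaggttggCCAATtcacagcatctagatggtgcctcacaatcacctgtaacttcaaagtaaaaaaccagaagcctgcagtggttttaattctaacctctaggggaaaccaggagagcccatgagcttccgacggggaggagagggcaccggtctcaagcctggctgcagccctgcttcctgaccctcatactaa
Mvk: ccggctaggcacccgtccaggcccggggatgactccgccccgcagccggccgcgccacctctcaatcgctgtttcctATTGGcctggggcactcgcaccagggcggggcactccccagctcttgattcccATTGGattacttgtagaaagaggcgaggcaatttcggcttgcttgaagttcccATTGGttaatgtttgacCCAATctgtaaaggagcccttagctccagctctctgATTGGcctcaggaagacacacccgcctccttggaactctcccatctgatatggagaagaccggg
Msmo1: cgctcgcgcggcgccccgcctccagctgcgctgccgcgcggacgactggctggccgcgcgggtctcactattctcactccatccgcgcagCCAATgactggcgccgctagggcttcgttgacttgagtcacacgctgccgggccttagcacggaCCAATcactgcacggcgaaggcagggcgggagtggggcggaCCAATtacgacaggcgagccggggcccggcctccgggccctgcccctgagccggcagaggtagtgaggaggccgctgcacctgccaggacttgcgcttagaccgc
Hmgcs1: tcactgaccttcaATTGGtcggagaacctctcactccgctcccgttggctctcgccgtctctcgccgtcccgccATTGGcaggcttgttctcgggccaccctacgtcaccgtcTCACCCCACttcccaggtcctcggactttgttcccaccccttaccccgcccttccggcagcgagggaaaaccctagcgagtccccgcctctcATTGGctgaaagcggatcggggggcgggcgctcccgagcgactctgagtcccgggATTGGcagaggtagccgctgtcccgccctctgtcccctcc
CCAAT was found in 14 of the 18 windows (14 of the 15 genes), and 37.4% of all 32851 windows hold it. TCACNCCAC was found in 1 of the 18 windows (Hmgcs1), and 1.24% of all windows hold it. Pmvk has 1 marked match, Msmo1 has 3, and Mvk and Hmgcs1 have 5 each. The printed windows were chosen among those with a match, and the window at the deposited start of Dhcr7 has 0. These are matches of letters, and binding was not measured here.

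Pmvk, the phosphomevalonate kinase (chromosome 3, 89454541 to 89469009), was at 9.80 and 10.8 CPM at 4 weeks, 56.2 and 48.7 CPM at TAA, and 58.1 and 50.7 CPM in control. Both 4-week libraries lay under every TAA and control library. The fall of Pmvk was 5.27-fold (log2 -2.40 ± 0.17, the SE of the fit with n = 2 in each group; edgeR adjusted p = 0.000123), and it kept its call. Fdps, which makes farnesyl pyrophosphate, was at 34.2 and 22.0 CPM at 4 weeks, 258.8 and 158.1 CPM at TAA, and 205.4 and 188.3 CPM in control (log2 -2.81 ± 0.29, edgeR adjusted p = 0.00103). Dhcr7, which makes cholesterol in the last step of one branch, was at 17.6 and 17.0 CPM at 4 weeks, 112.2 and 83.9 CPM at TAA, and 81.2 and 84.3 CPM in control (log2 -2.26 ± 0.19, edgeR adjusted p = 0.000466). Fdps and Dhcr7 kept their calls too, with no overlap between 4-week libraries and either other group. So did the mevalonate kinase Mvk (log2 -2.22 ± 0.26) and the decarboxylase Mvd (-2.06 ± 0.27).

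Other enzymes had been raised at TAA and passed below control. Msmo1, the methylsterol oxidase, was at 19.6 and 18.3 CPM at 4 weeks, 190.1 and 137.0 CPM at TAA, and 84.0 and 87.1 CPM in control. It was called lower at 4 weeks (log2 -2.17 ± 0.24, edgeR adjusted p = 0.00133) and higher at TAA (log2 0.93, edgeR adjusted p = 0.0149), and kept the 4-week call. Hmgcs1, the HMG-CoA synthase, was at 102.5 and 99.8 CPM at 4 weeks, 807.6 and 410.0 CPM at TAA, and 211.6 and 262.3 CPM in control (log2 -1.23 ± 0.32 at 4 weeks, edgeR adjusted p = 0.0262, range -1.38 to -1.07). Cyp51, Fdft1 and Lss, which act between farnesyl pyrophosphate and lanosterol's first demethylation, also overshot, with log2 changes of -1.68, -1.48 and -1.19 at 4 weeks. Sqle, the squalene epoxidase, did not pass the test (log2 -1.23 ± 0.46, edgeR adjusted p = 0.0747).

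**Figure D2:**
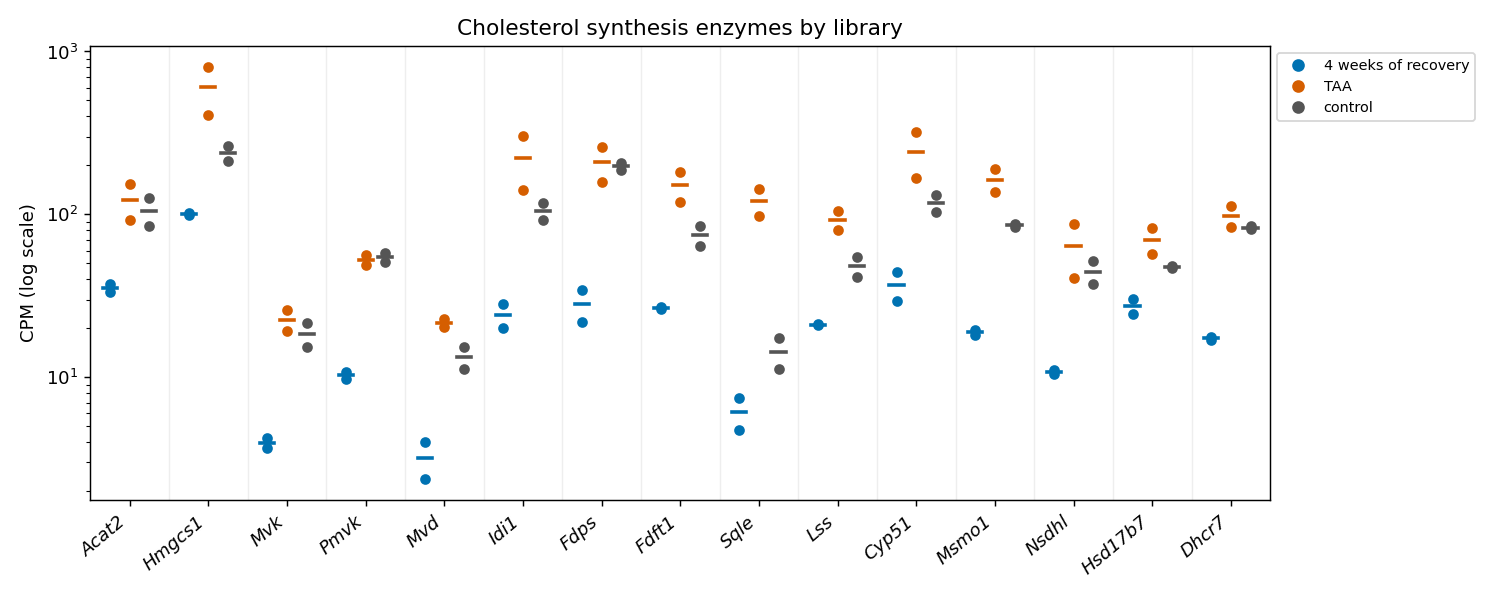
CPM on a log axis for 15 enzymes in pathway order, with 2 libraries (points) and their mean (bar) at 4 weeks of recovery, at TAA and in control. The 4-week points of Pmvk (9.80 and 10.8 CPM) and Msmo1 (19.6 and 18.3 CPM) lie below every other point of the same gene.

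Among genes that govern uptake and sensing of sterols, fewer were called. Of 21 tested, 7 fell and 2 rose (medians -0.32 at 4 weeks and -0.34 at TAA). In the fit without control replicate 1, 5 fell and 0 rose, without control replicate 2, 11 fell and 2 rose, and without a 4-week library, 2 or 1 fell and 0 rose. The sterol sensor Insig1 (log2 -1.19 ± 0.20) and the sterol carrier Stard4 (-1.33 ± 0.20) were new changes. Mylip, a ubiquitin ligase induced by sterols, rose by 0.71 ± 0.20 as a new change (edgeR adjusted p = 0.0338) and was called in none of the 4 fits without a library.

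Mmab, chosen after its values were seen, codes for an enzyme of vitamin B12 handling and lies head to head with Mvk on chromosome 5. In the deposited coordinates 233 bases separate the end of Mmab (114444060) from the start of Mvk (114444294), within the Mvk window printed above. Mmab was at 7.93 and 7.46 CPM at 4 weeks, 18.1 and 16.4 CPM at TAA, and 17.2 and 21.1 CPM in control. Its fall was a new change (log2 -1.32 ± 0.16, edgeR adjusted p = 0.00256), and it kept its call.

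Fatty acid and triglyceride synthesis genes were also called. Of 21 tested, 10 fell and 1 rose, with a median log2 change of -0.77 (-0.36 at TAA). When control replicate 1 was omitted, 7 fell and 1 rose, without control replicate 2, 15 fell and 2 rose, and without each 4-week library in turn, 2 fell. Thrsp, a nuclear protein that promotes lipogenesis (chromosome 7, 97412938 to 97417730), was at 11.6 and 16.3 CPM at 4 weeks, 34.9 and 79.0 CPM at TAA, and 327.4 and 304.9 CPM in control. It lay farther from control at 4 weeks (log2 -4.50 ± 0.43, edgeR adjusted p = 0.000716) than at TAA (log2 -2.47). Acss2, which makes acetyl-CoA from acetate, was at 71.3 and 85.0 CPM at 4 weeks, 215.3 and 158.8 CPM at TAA, and 337.0 and 336.0 CPM in control (log2 -2.11 ± 0.23, edgeR adjusted p = 0.00123). Both kept their calls. A partner of the Thrsp product that activates acetyl-CoA carboxylase, Mid1ip1, was chosen after its values were seen and was a new change at 16.7 and 17.7 CPM at 4 weeks, 37.0 and 52.6 CPM at TAA, and 59.4 and 59.3 CPM in control (log2 -1.79 ± 0.20), and kept its call.

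Srebf1, the SREBP gene that drives fatty acid synthesis, was at 106.1 and 134.2 CPM at 4 weeks, 129.7 and 213.1 CPM at TAA, and 393.1 and 460.1 CPM in control (log2 -1.83 ± 0.30, edgeR adjusted p = 0.00762). The glycolytic kinase Pklr (-1.73 ± 0.27) and the carboxylase Acacb (-1.89 ± 0.42) were likewise no nearer to control than at TAA. Fasn, the fatty acid synthase, was at 231.8 and 246.7 CPM at 4 weeks, 780.8 and 827.0 CPM at TAA, and 398.5 and 989.6 CPM in control. Its fall (log2 -1.54 ± 0.33, edgeR adjusted p = 0.016) and that of Acly, the citrate lyase (-1.77 ± 0.32, edgeR adjusted p = 0.0109), were new changes. Without control replicate 2, the higher of the 2 controls, they were -0.74 and -1.12. Lpin1, which makes diacylglycerol and coactivates fat oxidation genes, was the member that rose, with 184.0 and 302.2 CPM at 4 weeks, 71.6 and 90.2 CPM at TAA, and 23.7 and 50.9 CPM in control (log2 2.702 ± 0.43, edgeR adjusted p = 0.00716).

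The other new changes included members of the bile acid, cell cycle and gluconeogenesis lists. Cyp7a1, the rate-limiting enzyme of bile acid synthesis, was at 17.7 and 22.5 CPM at 4 weeks, 80.6 and 98.9 CPM at TAA, and 84.7 and 124.0 CPM in control (log2 -2.38 ± 0.43, edgeR adjusted p = 0.0109, range -2.63 to -2.08). Both 4-week libraries lay well under the other 4. Slc34a2, a phosphate transporter, was at 0.837 and 0.525 CPM at 4 weeks, 4.91 and 6.54 CPM at TAA, and 4.98 and 6.88 CPM in control (log2 -3.12 ± 0.59, edgeR adjusted p = 0.0115). Both 4-week libraries lay under the other 4 here too.

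Of 30 cell cycle genes, 7 fell against control at 4 weeks and 0 rose (median -0.63, with 27 below zero), and 5 of the 7 were new changes. At TAA, 20 had been higher than control and 0 lower (median 2.46), and 24 were lower at 4 weeks than at TAA. Ccnb1, a mitotic cyclin, was at 0.319 and 0.375 CPM at 4 weeks, 12.7 and 10.02 CPM at TAA, and 0.320 and 0.856 CPM in control and did not pass the test against control (log2 -0.78 ± 0.60, edgeR adjusted p = 0.352). The members called included the helicase subunits Mcm2, Mcm3, Mcm5 and Mcm6, which unwind DNA for replication. Mcm5 was at 1.59 and 2.29 CPM at 4 weeks, 7.403 and 5.56 CPM at TAA, and 5.30 and 8.76 CPM in control (log2 -1.86 ± 0.33, edgeR adjusted p = 0.00993, range -2.18 to -1.45). Mcm6 was at 3.35 and 3.67 CPM at 4 weeks, 13.6 and 10.7 CPM at TAA, and 6.08 and 15.2 CPM in control (log2 -1.61 ± 0.39, edgeR adjusted p = 0.0211), with -0.80 without control replicate 2. Ccnd1, the G1 cyclin, overshot with 11.3 and 14.03 CPM at 4 weeks, 171.2 and 121.8 CPM at TAA, and 26.0 and 25.9 CPM in control (log2 -1.04 ± 0.27, edgeR adjusted p = 0.0267). Without control replicate 1, 5 of the list were called lower, without control replicate 2, 4 lower and 1 higher, and without each 4-week library in turn, 0.

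The promoters of Mcm5 and Mcm6 are shown because both hold TTTGGCGC, the classic E2F site (RefSeq, GRCm38.p6, chr8:75109259-75109558 on the + strand and chr1:128359656-128359955 on the - strand). Capitals mark TTTGGCGC or CCAAT on either strand, with no overlap between them.
Mcm5: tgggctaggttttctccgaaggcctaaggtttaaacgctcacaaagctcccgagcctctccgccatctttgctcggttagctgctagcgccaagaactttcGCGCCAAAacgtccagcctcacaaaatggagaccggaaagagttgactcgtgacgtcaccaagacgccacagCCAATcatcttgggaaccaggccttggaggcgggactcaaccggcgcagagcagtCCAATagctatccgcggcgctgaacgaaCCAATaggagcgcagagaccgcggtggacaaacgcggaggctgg
Mcm6: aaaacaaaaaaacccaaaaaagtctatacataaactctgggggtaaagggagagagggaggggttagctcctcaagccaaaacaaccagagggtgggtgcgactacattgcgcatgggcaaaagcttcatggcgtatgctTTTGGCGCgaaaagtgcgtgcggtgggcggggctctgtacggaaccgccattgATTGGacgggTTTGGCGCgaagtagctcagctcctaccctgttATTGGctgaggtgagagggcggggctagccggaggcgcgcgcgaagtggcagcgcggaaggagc
TTTGGCGC was found in windows of 3 of the 4 helicase genes (not Mcm2) and 3 of the 24 cell cycle genes with a window, the same 3, and 0.514% of all windows hold it. CCAAT was found in all 4 helicase genes and in 20 of the 24.

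Genes of gluconeogenesis and glucocorticoid action rose in 9 of 19 members and fell in 1, with a median of 0.28. Of these 10, 3 were new changes, 1 overshot and 6 were incomplete returns. With control replicate 1 left out, 9 rose and 0 fell, without control replicate 2, 9 rose and 3 fell, and without 4-week replicate 1 and replicate 2, 5 and 4 rose. Pck1, the gate enzyme of gluconeogenesis (chromosome 2, 173153048 to 173159273), was at 4169 and 4413 CPM at 4 weeks, 1056 and 824.6 CPM at TAA, and 1705 and 1812 CPM in control. It was 2.44-fold higher than control at 4 weeks (log2 1.29 ± 0.17, edgeR adjusted p = 0.00326), had been called lower at TAA (log2 -0.90), and kept its call. The forkhead factor Foxo1 (1.18 ± 0.27, edgeR adjusted p = 0.0181, range 0.75 to 1.77) and the coactivator Ppargc1a (1.59 ± 0.31, edgeR adjusted p = 0.0126, range 1.04 to 1.98), both drivers of gluconeogenic genes, were new changes.

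Zbtb16, a zinc finger factor induced by glucocorticoid, was at 166.4 and 210.4 CPM at 4 weeks, 19.7 and 36.9 CPM at TAA, and 7.41 and 36.8 CPM in control (log2 3.08 ± 0.55, edgeR adjusted p = 0.0105). The 2 control libraries lay far apart, and the log2 value ran from 2.35 to 4.66 over the 4 fits that left out a library. Plin4, a lipid droplet coat protein, was at 48.4 and 86.4 CPM at 4 weeks, 3.21 and 16.2 CPM at TAA, and 2.33 and 14.8 CPM in control (log2 2.96 ± 0.78, edgeR adjusted p = 0.0268, range 2.18 to 4.84). Pdgfrl, a PDGF receptor-like protein, was at 6.53 and 11.4 CPM at 4 weeks, 0.797 and 1.296 CPM at TAA, and 0.457 and 0.616 CPM in control (log2 4.04 ± 0.51, edgeR adjusted p = 0.00285). Wnk4, a kinase of salt transport, was at 12.4 and 12 CPM at 4 weeks, 3.50 and 4.46 CPM at TAA, and 2.29 and 3.08 CPM in control (log2 2.18 ± 0.30, edgeR adjusted p = 0.00367). Pdgfrl and Wnk4 kept their calls, and Zbtb16 and Plin4 did not. The interleukin 6 receptor chain Il6ra (1.76 ± 0.37) and the actin-severing protein Gsn (1.80 ± 0.47) were further new changes upward.

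Part of the scar genes were still raised at 4 weeks. Of 27 fibrillar and matrix genes tested, 9 rose and 0 fell against control, each of the 9 was an incomplete return, and 8 of the 27 were called lower than at TAA. The list's median log2 change was 0.88 at 4 weeks and 1.55 at TAA, where 17 had risen. These calls depended on single libraries: without control replicate 1, 0 rose and 1 fell, without control replicate 2, 9 rose and 1 fell, and without 4-week replicate 1 and replicate 2, 1 and 0 rose, with medians from 0.56 to 1.13. In whole liver, fewer cells of a type and less RNA per cell cannot be told apart.

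Col1a1, which encodes a chain of type I collagen (chromosome 11, 94936224 to 94953042), was at 30.2 and 53.3 CPM at 4 weeks, 201.4 and 133.0 CPM at TAA, and 7.54 and 10.3 CPM in control. The 3 groups did not overlap. Col1a1 was 4.66-fold higher than control at 4 weeks (log2 2.22 ± 0.48, edgeR adjusted p = 0.0161, range 1.74 to 2.56), and its fall from TAA was called as well. Col6a3, a microfibrillar collagen, was at 40.2 and 83.1 CPM at 4 weeks, 93.4 and 65.8 CPM at TAA, and 9.28 and 12.9 CPM in control (log2 2.47 ± 0.54, edgeR adjusted p = 0.0166, range 1.84 to 2.90). Its 4-week libraries overlapped TAA. Elastin, Eln, was at 9.92 and 19.7 CPM at 4 weeks, 36.8 and 30.9 CPM at TAA, and 3.61 and 5.41 CPM in control (log2 1.71 ± 0.48, edgeR adjusted p = 0.032). Among basement membrane genes 4 of 18 rose, 3 of the 4 were incomplete returns, and 1 of the 18 was called lower than at TAA. Among genes of matrix crosslinking and turnover 5 of 22 rose, each an incomplete return, 1 fell, and 2 were called lower than at TAA. In the fit without control replicate 1, 0 of the basement membrane genes and 1 of the crosslinking genes were called higher, and without each 4-week library in turn, 0 of both. Lamc3, a laminin chain outside those lists and no nearer to control than at TAA, was at 19.04 and 42.1 CPM at 4 weeks, 19.2 and 6.86 CPM at TAA, and 1.74 and 3.70 CPM in control (log2 3.47 ± 0.70, edgeR adjusted p = 0.0138).

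Acta2, the smooth muscle actin of myofibroblasts, was at 1.75 and 1.12 CPM at 4 weeks, 3.91 and 6.16 CPM at TAA, and 2.52 and 0.856 CPM in control (log2 -0.21 ± 0.55 at 4 weeks, edgeR adjusted p = 0.798). Among 15 tested markers of stellate cells and myofibroblasts, 1 rose and 2 fell at 4 weeks, with a median of 0.02. Omitting control replicate 1 gave 1 higher and 0 lower, omitting control replicate 2 gave 0 and 5, and omitting each 4-week library in turn gave 0 and 0. The summed level of the 18 listed markers was 277.7 and 382.8 CPM at 4 weeks, 352.4 and 307.3 CPM at TAA, and 281.8 and 231.3 CPM in control. Pdgfra, a receptor of fibroblasts and stellate cells, was the member that rose, with 19.7 and 38.7 CPM at 4 weeks, 22.6 and 13.6 CPM at TAA, and 5.71 and 6.78 CPM in control (log2 2.22 ± 0.58, edgeR adjusted p = 0.026). It is unresolved against TAA and was called in none of the 4 fits without a library.

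Bile duct markers rose in 5 of 17 members and fell in 0, with a median of 1.73 against 3.02 at TAA, where 12 had risen. The 4-week calls of this list were lost without either 4-week library or without control replicate 1. Its median ran from 1.24 to 2.01 over the 4 fits without 1 compared library. Mmp7, a matrix protease of injured bile ducts, was at 4.86 and 10.4 CPM at 4 weeks, 24.8 and 7.87 CPM at TAA, and 0.0914 and 0.0342 CPM in control. Its control libraries held 2 counts and 1 count, so the ratio of 131 at 4 weeks has a 95% counting interval of 44.6 to 639 (exact Poisson, counting error alone), beside an edgeR adjusted p of 0.0137. Ehf, an epithelial transcription factor, was at 3.35 and 5.47 CPM at 4 weeks, 16.6 and 5.97 CPM at TAA, and 0.274 and 0.787 CPM in control (log2 2.997 ± 0.71, edgeR adjusted p = 0.02). The summed level of the 18 listed markers was 195.6 and 325.1 CPM at 4 weeks, 673.8 and 217.1 CPM at TAA, and 79.0 and 100.2 CPM in control. The duct keratin Krt19 (log2 0.80 ± 0.52, edgeR adjusted p = 0.276) and Spp1, osteopontin (1.80 ± 0.67, edgeR adjusted p = 0.0767), did not pass the test.

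Among markers of monocyte-derived macrophages 5 of 16 rose and 1 fell, with a median of 0.77 (1.73 at TAA, where 9 had risen). Gpnmb, a glycoprotein of lipid-laden macrophages, was at 3.07 and 6 CPM at 4 weeks, 7.403 and 9.64 CPM at TAA, and 0.137 and 0.0342 CPM in control. Its control libraries held 3 counts and 1 count, and the ratio at 4 weeks was 58.5 (95% counting interval 22.5 to 216, edgeR adjusted p = 0.00295). Gpnmb kept its call. Trem2, a lipid receptor of scar-associated macrophages, was at 1.20 and 2.17 CPM at 4 weeks, 2.19 and 3.22 CPM at TAA, and 0.411 and 0.171 CPM in control (log2 2.56 ± 0.55, edgeR adjusted p = 0.016, range 2.02 to 3.26). Fabp5, a fatty acid binding protein and unresolved against TAA, fell (log2 -2.40 ± 0.49, edgeR adjusted p = 0.0139). The summed level of the 16 markers was 395.4 and 435.3 CPM at 4 weeks, 931.5 and 558.3 CPM at TAA, and 579.7 and 358.4 CPM in control. When control replicate 1 was omitted, 3 of the markers were called higher, without control replicate 2, 5 higher and 3 lower, and without each 4-week library in turn, 1 higher. Kupffer cell markers, those of the resident macrophages, rose in 0 of 14 members and fell in 1 (5 without control replicate 2, and 0 without each of the other 3 compared libraries in turn). Vcam1, an adhesion protein for leukocytes chosen after its values were seen, was at 18.6 and 17.1 CPM at 4 weeks, 31.0 and 22.7 CPM at TAA, and 7.41 and 5.65 CPM in control (log2 1.45 ± 0.22, edgeR adjusted p = 0.00593), and kept its call.

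The p53 target list, genes switched on by DNA damage, had 6 of 16 members higher and 0 lower than control, with a median of 0.41 against 1.73 at TAA, where 12 had risen. Cdkn1a, the cell cycle inhibitor p21, was at 51.2 and 63.8 CPM at 4 weeks, 124.3 and 133.5 CPM at TAA, and 27.8 and 18.2 CPM in control (log2 1.32 ± 0.28, edgeR adjusted p = 0.0155, range 1.04 to 1.65). Eda2r, a death receptor, was at 2.75 and 3.60 CPM at 4 weeks, 37.1 and 28.8 CPM at TAA, and 1.19 and 1.95 CPM in control (log2 1.00 ± 0.28, edgeR adjusted p = 0.0311). Both were called lower than at TAA. At 2 weeks of recovery Cdkn1a was at 21.4 and 21.1 CPM, within the range of its control libraries. Without control replicate 1, 2 of the list rose, without control replicate 2, 8 rose and 3 fell, and without each 4-week library in turn, 0 did.

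Hepatocyte genes of the central zone, where thioacetamide acts, were in part still lowered. Of 21 pericentral genes tested, 11 fell and 0 rose at 4 weeks (median -0.80), against 15 lower and 3 higher at TAA (median -1.58). Of the 11, 10 were incomplete returns, and 10 of the 21 were higher at 4 weeks than at TAA. With control replicate 1 left out, 2 fell, without control replicate 2, 14 fell and 1 rose, and without each 4-week library in turn, 1 fell. The hepatocyte marker Alb, albumin, was at 43650 and 42530 CPM at 4 weeks, 56100 and 46640 CPM at TAA, and 57850 and 51920 CPM in control and was not called (log2 -0.35 ± 0.17, edgeR adjusted p = 0.163). Glul, the glutamine synthetase of the hepatocytes next to the central vein (chromosome 1, 153899944 to 153909723), was at 229.3 and 324.3 CPM at 4 weeks, 72.2 and 71.9 CPM at TAA, and 1007 and 897.5 CPM in control. The 3 groups did not overlap, the fall from control was 3.44-fold (log2 -1.78 ± 0.18, edgeR adjusted p = 0.000977), and Glul kept its call. Oat, the ornithine aminotransferase of the same cells, was at 195.3 and 228.3 CPM at 4 weeks, 17.0 and 19.9 CPM at TAA, and 992.7 and 712.8 CPM in control (log2 -2.01 ± 0.50, edgeR adjusted p = 0.0226, range -2.24 to -1.76). Slc1a2, their glutamate transporter, was at 74.1 and 121.7 CPM at 4 weeks, 0.334 and 0.284 CPM at TAA, and 146.9 and 174.0 CPM in control, and did not pass the test against control (log2 -0.71 ± 0.44, edgeR adjusted p = 0.245). Cyp2e1, the enzyme that activates thioacetamide, was at 3572 and 3716 CPM at 4 weeks, 825.5 and 650.0 CPM at TAA, and 5821 and 3598 CPM in control (log2 -0.37 ± 0.26, edgeR adjusted p = 0.303). Both were called higher at 4 weeks than at TAA.

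**Figure D3:**
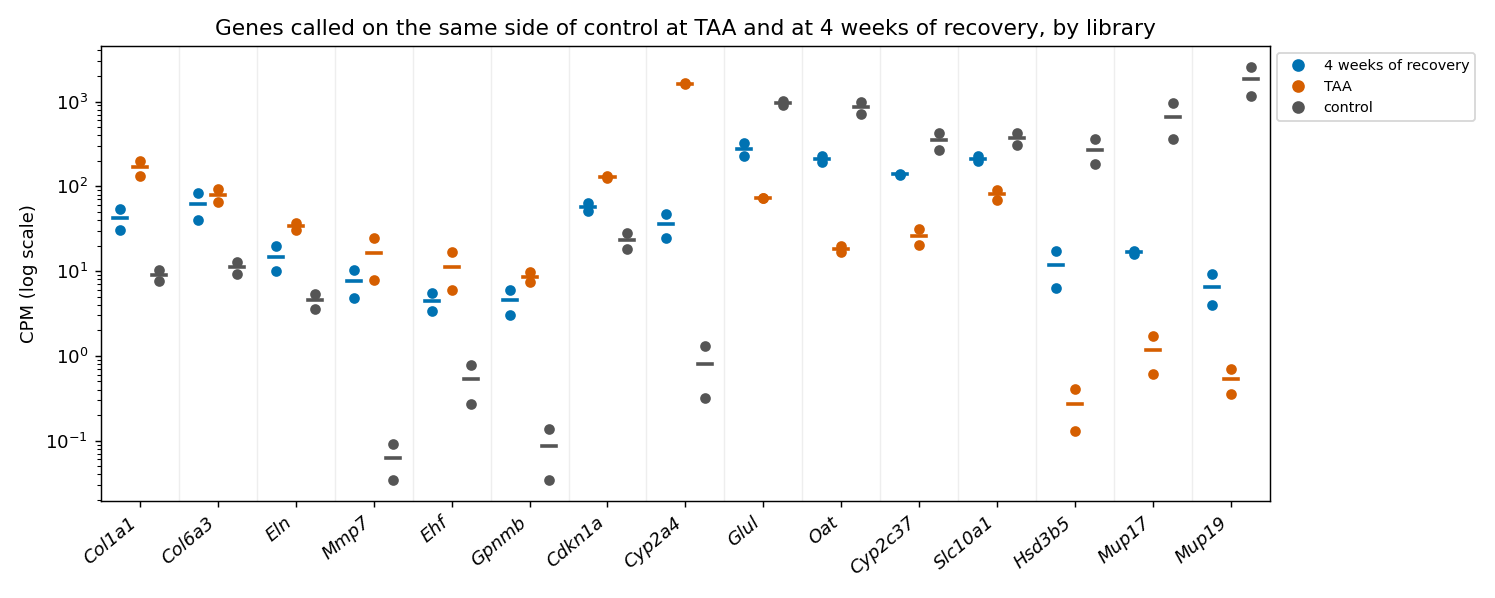
CPM on a log axis for 15 genes called on the same side of control at TAA and at 4 weeks of recovery, with 2 libraries (points) and their mean (bar) per group. Glul (229.3 and 324.3 CPM at 4 weeks, against 1007 and 897.5 CPM in control) and Col1a1 (30.2 and 53.3 CPM, against 7.54 and 10.3 CPM) lie between TAA and control.

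Genes that male hepatocytes express more than female ones had the lowest median of the 37 lists at TAA and lay nearer to control at 4 weeks. Ddx3y, a Y-linked gene, was at 71.9 and 64.3 CPM at 4 weeks, 62.0 and 50.4 CPM at TAA, and 77.1 and 63.4 CPM in control. Of 21 male-biased genes tested, 7 fell and 0 rose at 4 weeks, each an incomplete return (median -1.26), against 19 lower at TAA (median -3.90). Of the 21, 12 were higher at 4 weeks than at TAA. In the fit without control replicate 1, 2 fell, without control replicate 2, 9, and without 4-week replicate 1 and replicate 2, 2 and 1. Mup19, a major urinary protein gene (chromosome 4, 61778324 to 61782269), was at 3.94 and 9.19 CPM at 4 weeks, 0.360 and 0.695 CPM at TAA, and 2579 and 1153 CPM in control (log2 -8.15 ± 0.59, edgeR adjusted p = 0.000123). Mup17, a close relative, was at 17.1 and 16.1 CPM at 4 weeks, 0.617 and 1.74 CPM at TAA, and 950.8 and 361.8 CPM in control (log2 -5.30 ± 0.52, edgeR adjusted p = 0.000821). Both kept their calls, but Mup genes are near-identical copies whose shared reads the estimation divides, so the level of a single copy is uncertain. Mup20, darcin, was at 11620 and 9235 CPM at 4 weeks, 4928 and 5324 CPM at TAA, and 13020 and 4582 CPM in control and was not called (log2 0.24 ± 0.41, edgeR adjusted p = 0.681).

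Hsd3b5, a male-specific steroid dehydrogenase, was at 17.3 and 6.34 CPM at 4 weeks, 0.129 and 0.411 CPM at TAA, and 359.6 and 180.8 CPM in control (log2 -4.52 ± 1.09, edgeR adjusted p = 0.0212, range -5.42 to -3.95). Cyp4a12a, another male-biased gene, was at 517.9 and 303.5 CPM at 4 weeks, 85.7 and 56.3 CPM at TAA, and 395.3 and 443.2 CPM in control (log2 -0.03 ± 0.37, edgeR adjusted p = 0.96). Cyp2a4, a female-biased steroid hydroxylase, was at 24.8 and 47.7 CPM at 4 weeks, 1589 and 1666 CPM at TAA, and 0.320 and 1.301 CPM in control. Its rise at 4 weeks was called (log2 5.41 ± 0.86, edgeR adjusted p = 0.00704, range 4.79 to 6.80), and its fall from TAA was called. Cyp2a4 shares most of its sequence with Cyp2a5, which was at 601.3 and 793.3 CPM at 4 weeks, 3861 and 3091 CPM at TAA, and 602.2 and 558.4 CPM in control and was not called (log2 0.27 ± 0.27, edgeR adjusted p = 0.483). Among 20 female-biased genes, 1 rose and 2 fell at 4 weeks, against 9 higher and 2 lower at TAA.

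Genes of bile acid synthesis and transport were lower in part. Of 27 tested, 11 fell and 3 rose at 4 weeks (median -0.64; 9 incomplete returns, 1 new change and 4 unresolved), against 18 lower and 1 higher at TAA (median -1.35). Slc10a1, the bile salt uptake carrier NTCP, was at 226.1 and 196.7 CPM at 4 weeks, 91.2 and 69.3 CPM at TAA, and 428.1 and 304.6 CPM in control (log2 -0.79 ± 0.19, edgeR adjusted p = 0.0215, range -1.03 to -0.54). When control replicate 1 was omitted, 3 of the list fell and 0 rose, without control replicate 2, 16 fell and 3 rose, and without 4-week replicate 1 and replicate 2, 0 and 1 fell. Of 25 genes of choline and one-carbon metabolism, 8 fell and 0 rose (median -0.52, against 18 lower at TAA, median -0.83). Pemt, which makes phosphatidylcholine by methylation and was no nearer to control, was at 107.8 and 107.8 CPM at 4 weeks, 123.2 and 99.8 CPM at TAA, and 359.4 and 173.9 CPM in control (log2 -1.31 ± 0.27, edgeR adjusted p = 0.0146, range -1.74 to -0.70). A further member, Bhmt, which passes methyl groups from betaine, fell by 1.77 ± 0.48 (edgeR adjusted p = 0.029, range -2.15 to -1.30). Without control replicate 1, 6 of this list fell, without control replicate 2, 14 fell and 3 rose, and without each 4-week library in turn, 0 did.

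**Figure D4:**
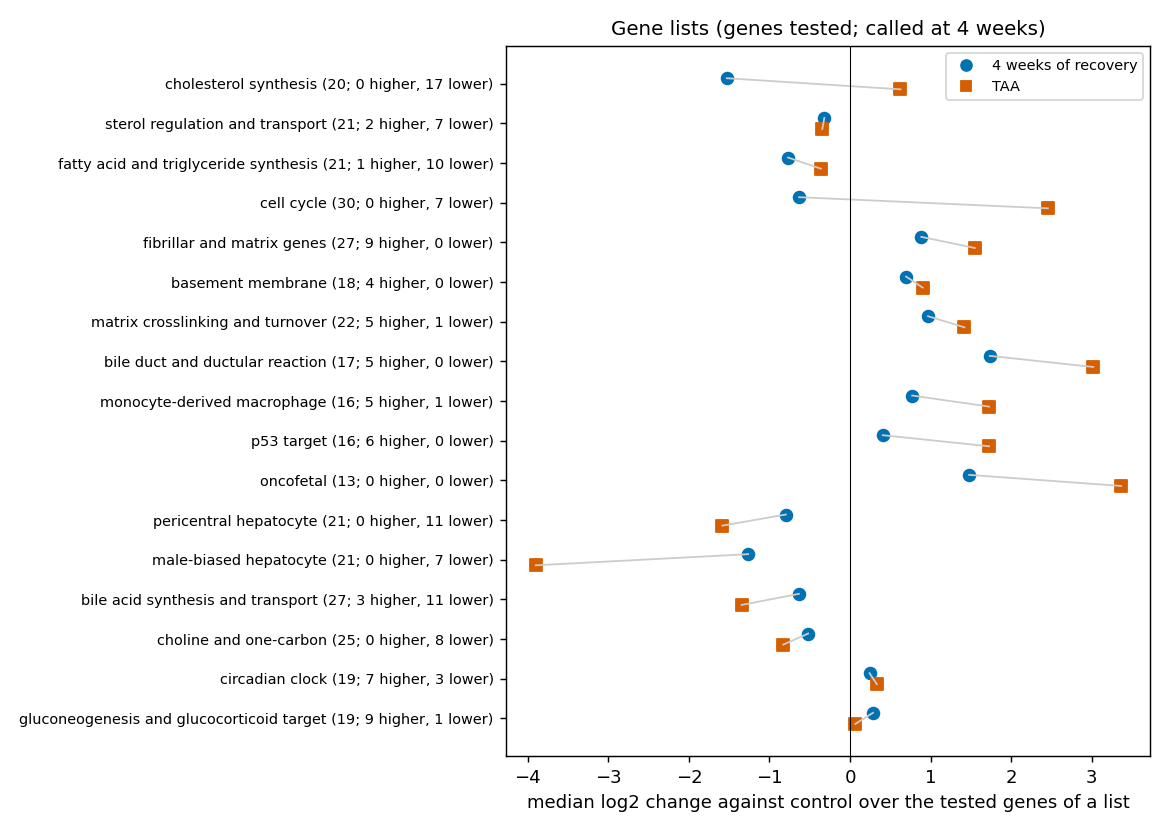
Median log2 change against control over the tested genes of 17 lists, at 4 weeks of recovery (circles) and at TAA (squares), with the number tested and the numbers called higher and lower at 4 weeks in the row names. Cholesterol synthesis (-1.53 and 0.63) and cell cycle (-0.63 and 2.46) lie on opposite sides of zero at the 2 times, and the matrix, bile duct, macrophage, pericentral and male-biased lists lie on the same side.

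A last set of genes was no nearer to control at 4 weeks than at TAA. The clock gene Per1 (chromosome 11, 69098948 to 69109960), which also responds to glucocorticoid, was at 51.8 and 71.8 CPM at 4 weeks, 21.9 and 32.5 CPM at TAA, and 9.37 and 11.8 CPM in control (log2 2.54 ± 0.27, edgeR adjusted p = 0.0012). Per1 kept its call. Of 19 clock genes tested, 7 rose and 3 fell at 4 weeks (6 and 2 at TAA), including the repressors Nr1d1 (log2 3.48 ± 0.63) and Nr1d2 (1.76 ± 0.29) and the output factor Dbp (2.40 ± 0.69). Of these, Nr1d1 is unresolved against TAA, Nr1d2 was no nearer to control and Dbp was nearer. With control replicate 1 left out, 4 rose and 2 fell, without control replicate 2, 11 rose and 2 fell, and without each 4-week library in turn, 2 rose and 1 fell. The labels state no diet or hour of sampling, and their part in these values was not tested. The same holds for the sterol, fatty acid, bile acid and gluconeogenesis genes above, and for Zbtb16 and Il6ra.

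Mt2 and Mt1, metallothioneins that bind zinc and respond to metal and glucocorticoid, rose together. Mt2 was at 28.2 and 10.7 CPM at 4 weeks, 9.05 and 3.54 CPM at TAA, and 1.05 and 0.377 CPM in control (log2 4.79 ± 0.73, edgeR adjusted p = 0.0062), and kept its call. Mt1 was at 43.2 and 30.0 CPM at 4 weeks, 19.4 and 11.53 CPM at TAA, and 6.72 and 3.56 CPM in control (log2 2.84 ± 0.48, edgeR adjusted p = 0.00925, range 2.44 to 3.35). For both, every 4-week library was above every TAA library. Fkbp5, a glucocorticoid-induced chaperone, was at 54.7 and 60.1 CPM at 4 weeks, 39.9 and 37.8 CPM at TAA, and 8.87 and 22.3 CPM in control (log2 1.88 ± 0.35, edgeR adjusted p = 0.011, range 1.35 to 2.69).

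Further genes of this kind that kept their calls were chosen after their values were seen, apart from Chrm3. Chrm3, a muscarinic acetylcholine receptor, was at 6.97 and 7.88 CPM at 4 weeks, 6.71 and 5.91 CPM at TAA, and 1.10 and 1.44 CPM in control (log2 2.54 ± 0.23, edgeR adjusted p = 0.000466). Osmr, the oncostatin M receptor, was at 13.7 and 15.7 CPM at 4 weeks, 7.79 and 5.75 CPM at TAA, and 2.29 and 3.32 CPM in control (log2 2.38 ± 0.32, edgeR adjusted p = 0.00326). Aqp8, a water channel of hepatocytes, was at 20.2 and 27.2 CPM at 4 weeks, 79.5 and 72.7 CPM at TAA, and 179.0 and 129.6 CPM in control (log2 -2.70 ± 0.29, edgeR adjusted p = 0.00122). The difference from TAA was called for Osmr and Aqp8, in the direction away from control. Alad, an enzyme of haem synthesis (log2 -1.44 ± 0.19), Fdx1, a mitochondrial ferredoxin (-1.34 ± 0.16), and Ddc, the aromatic amino acid decarboxylase (-1.63 ± 0.19), were lower by similar amounts.

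For some of these genes, levels at 1 and 2 weeks of recovery without choline are set beside the 4-week values. Each time is a separate group of 2 libraries. Pmvk was at 58.1 and 50.7 CPM in control, 56.2 and 48.7 CPM at TAA, 37.5 and 37.5 CPM at 1 week, 17.5 and 21.1 CPM at 2 weeks, and 9.80 and 10.8 CPM at 4 weeks, with no overlap between successive times from TAA on. Thrsp was at 327.4 and 304.9 CPM in control, 34.9 and 79.0 CPM at TAA, 211.5 and 137.0 CPM at 1 week, 89.7 and 105.0 CPM at 2 weeks, and 11.6 and 16.3 CPM at 4 weeks, so its 1-week libraries lay between TAA and control. Per1 and Zbtb16 stood apart at 4 weeks: at 2 weeks they were at 7.87 and 6.03 CPM and at 28.8 and 23.6 CPM, values under the control libraries for Per1 and between them for Zbtb16. Mt2 was at 1.70 and 0.635 CPM at 2 weeks, near its control libraries, and 28.2 and 10.7 CPM at 4 weeks. Cdkn1a was at 21.4 and 21.1 CPM at 2 weeks, within its control range, and was higher again at 4 weeks. Mmp7 was at 0.808 and 0.992 CPM at 2 weeks, above its control libraries and under its 4-week libraries. Per1, Mt2 and Cdkn1a are incomplete returns by the rule, though they were near or under control at 2 weeks. Mt1, another incomplete return, was at 4.53 and 4.25 CPM at 1 week, within its control range, and at 10.93 and 3.215 CPM at 2 weeks. For these genes the name does not describe the course between TAA and 4 weeks. How many other genes share this was not tested. Col1a1 was at 44.6 and 33.98 CPM at 2 weeks, which overlaps its 4-week values. Glul was at 214.9 and 222.5 CPM at 2 weeks, under both of its 4-week libraries (229.3 and 324.3 CPM). No test was made between recovery times here.

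**Figure D5:**
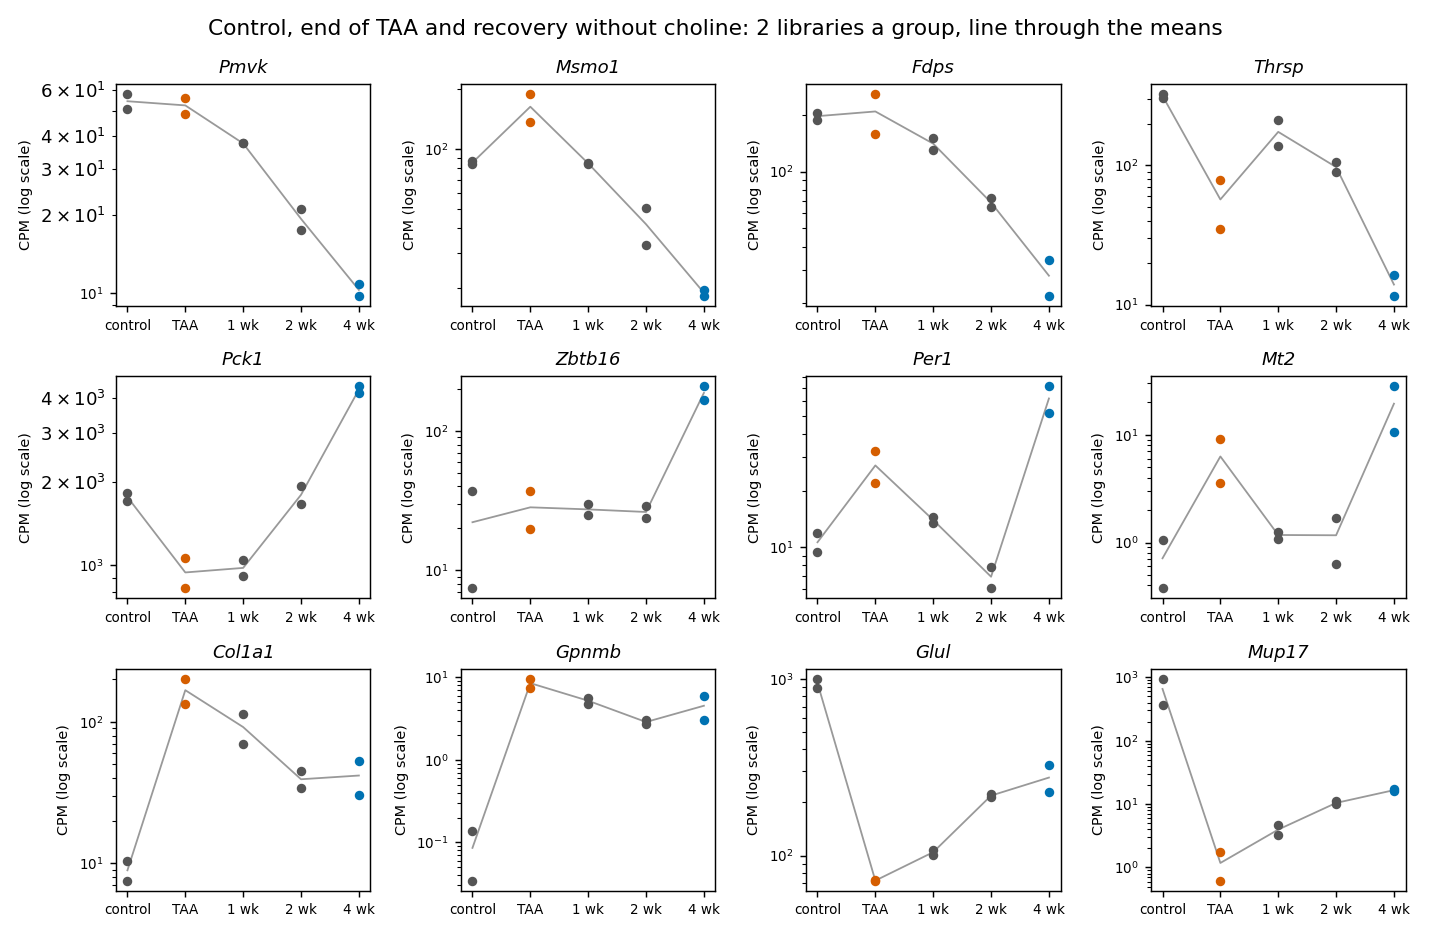
CPM on a log axis for 12 genes in control, at TAA and at 1, 2 and 4 weeks of recovery without choline, with 2 libraries per group (points) and a line through their means. Pmvk, Msmo1 and Fdps are lowest at 4 weeks, Per1, Mt2, Zbtb16 and Pck1 are highest at 4 weeks, and Glul and Mup17 climb from TAA without reaching control.

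Over all genes called higher at TAA, 70.95% were not called at 4 weeks, and 2 other lists raised by thioacetamide are read beside that share. Of 13 oncofetal genes, edgeR called 0 at 4 weeks (6 at an unadjusted p under 0.05), DESeq2 called 3 higher, and the median was 1.48. At TAA 10 of them had been higher. Afp, alpha-fetoprotein, was at 0.358 and 0.600 CPM at 4 weeks, 35.0 and 34.1 CPM at TAA, and 1.42 and 0.445 CPM in control (log2 -0.90 ± 0.51, edgeR adjusted p = 0.206). Of 24 targets of the oxidative stress factor NRF2, 1 rose and 5 fell at 4 weeks, and 15 had been higher at TAA. Nqo1, a quinone reductase and standard NRF2 target, was at 5.42 and 7.28 CPM at 4 weeks, 33.6 and 20.7 CPM at TAA, and 5.76 and 5.78 CPM in control (log2 0.14 ± 0.38, edgeR adjusted p = 0.807). Pgd, of the pentose phosphate pathway and NRF2 list, overshot with 23.5 and 25.3 CPM at 4 weeks, 174.9 and 157.4 CPM at TAA, and 48.9 and 49.7 CPM in control (log2 -1.01 ± 0.18, edgeR adjusted p = 0.00984). Without control replicate 2, 2 of the NRF2 list rose and 8 fell, without control replicate 1, 1 fell, and without each 4-week library in turn, 0 did. With 2 libraries a group, an uncalled gene is not shown to have returned. Simulated data with few changed genes and no outlying library recovered 30% of genes changed by 1 on the log2 scale.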

How the data were processed

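RNA from whole liver was depleted of ribosomal RNA and made into directional libraries, per the labels' protocols. The table holds expected counts per gene, deposited by the authors, and 22.16% of its non-zero values have a fractional part, so they were rounded. The 7SL shares given above are shares of these counts. A second deposited table holds the authors' TPM values, used only for the 7SL share of TPM. That share was 49.1% and 52.9% at 4 weeks, 37.8% and 50.6% at TAA, and 60.5% and 56.7% in control. The submitters' processing notes name STAR 2.7.10b, RSEM 1.3.3, DESeq2 1.36.0 and GRCm38, without roles. The strand setting of the counting was not found, so overlapping and antisense genes are uncertain, as are near-identical copies (Mup, Cyp2a, Cyp2c). No use was made of 2 columns that matched no sample.

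All 16 libraries were fitted together (edgeR 4.0.16, robust quasi-likelihood, 8 group means, filterByExpr, TMM), with Benjamini-Hochberg adjustment over 17292 genes and calls at 0.05. Standard errors come from the log2 change and its F value. The smallest exact permutation p for 2 libraries against 2 is 0.333. On simulated counts for this comparison (16989 genes), 30% of 100 genes changed by 1 on the log2 scale and 77% of 100 changed by 2 were recovered, with 5 false calls among 112. The simulation changed no other genes and gave a gene the same spread in every library, so it held no outlying control library. Its shares of recovered genes and false calls do not carry over to the 3368 calls. Genes were named by the largest changes per class (at least 5 CPM in the higher group, no overlap), up to 4 per list, and a fixed set; genes outside that are marked as such. Members and lists were chosen with earlier results of these data known. Alternatives used DESeq2 1.42.0, other scalings, filters and sets of libraries. The deposited gene starts were raised by 1 to count from 1. Results for some genes are not reported here.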

Additional observations from a re-analysis of the deposited data

How the results depend on the processing

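Counts of called genes moved with the libraries more than with the method. DESeq2's test called 4596 genes at 4 weeks against control, DESeq2 size factors 3386 and the table without 7SL RNA genes 3387, beside 3368. Without the filter on low counts, 5042 were called, 2086 with an incomplete return and 1366 with a new change or overshoot, beside 1246 and 697. A fit of the 4-week and control libraries called 0 (2033 at an unadjusted p under 0.05). Adding TAA to it gave 0 called, 0 incomplete returns and 0 new changes (3064 at an unadjusted p under 0.05), with 296 at TAA and 71 between 4 weeks and TAA. The 10 libraries without choline gave 235, 132 incomplete, 74 new, 2002 at TAA and 1056 between 4 weeks and TAA. Without both libraries low in Malat1, 2107 were called, 545 incomplete, and 4551 between 4 weeks and TAA. The cause of these shifts was not tested. The fits without 1 library ranged from 94 to 9044 at 4 weeks, 1918 to 8141 at TAA, 893 to 5559 between 4 weeks and TAA, 51 to 6075 incomplete and 38 to 1644 new. The share of calls that were higher was 37.6%, against 49.2% without the filter, 28.4% without control replicate 1 and 51.4% without control replicate 2, where the median of all genes was 0.132.

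Genes that changed sign were not called at 4 weeks in the fit of all 16 libraries. Over the fits without 1 library, log2 values ran from -0.814 to 0.734 for Acta2, -1.555 to 0.104 for Afp, -1.299 to 0.109 for Ccnb1, -0.683 to 0.008 for Cyp2e1, -0.473 to 0.295 for Cyp4a12a, -0.188 to 0.093 for Ddx3y, -4.574 to 2.879 for Fos, -0.328 to 1.176 for Mup20 and -0.101 to 0.327 for Nqo1. Without both libraries low in Malat1 they were 0.739 for Acta2, 0.109 for Afp, 0.014 for Cyp2e1 and 0.099 for Ddx3y.

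With the replicate number as a replicate block, 3897 genes were called, 1500 incomplete and 823 new. Deviations of same-numbered libraries correlated at 0.151 between 4 weeks and control, 0.015 between 4 weeks and TAA, and 0.587 between TAA and control, over 2 pairs. Control and TAA replicate 1 were also both low in Malat1. Whether the numbers pair the samples is not settled by these values.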
